A study of Mus musculus with 15 samples.

Results

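The cytosolic ribosomal proteins are the structural proteins of the ribosome in the cytoplasm. Genes were taken by symbol, as those named Rpl or Rps with a number plus Rplp0, Rplp1, Rplp2 and Rpsa, without the Rps6k kinases and Rps19bp1, and needed a probe well above background on 3 or more of the 15 arrays. This gave 83 genes, 51 of the large and 32 of the small subunit, of 25791 features tested. The filter left out 0 of them, and the probe used for each was well above background on every array.

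RNA came from the heart apex of male C57BL6 mice aged 10 weeks, 3 days after surgery. The surgery was transverse aortic constriction (TAC), a narrowing of the aorta against which the ventricle must pump, or a sham operation. All mice carried cre under a myosin heavy chain promoter, which acts in heart muscle cells. The Cre mice carried MHC-cre alone, and the KO mice carried MHC-cre-klf4, the cre that removes Klf4 (a transcription factor of the Krüppel family). Bulk apex RNA was hybridised to 8 sham arrays, 4 of each genotype, and 7 TAC arrays, 3 Cre and 4 KO, with 4 animals per group stated by the labels.

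A ribosome joins a small subunit, which reads the mRNA, to a large subunit, which forms peptide bonds. Each subunit is ribosomal RNA held by many proteins made in matched amounts, and many of their mRNAs begin with a pyrimidine run that lets mTOR signalling set their translation. Some proteins have a paralog that can take their place, such as Rpl3l, the form of Rpl3 found in heart and skeletal muscle. A growing heart muscle cell makes more ribosomes.

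KO TAC replicate 4 stood apart: its median processed signal was 453.9 against 88.2 to 147.1 on the other 14 arrays, and its median correlation with other arrays was 0.807 against 0.961 to 0.982. Counts of calls over the members and the lists of the translation machinery are therefore also given without it. The deposited value table held 14 of these arrays, each with its own operation but with genotypes exchanged, so the direction between genotypes is unsettled and "Cre" and "KO" below mean the genotype under which a scanner file was filed. The array not found there was KO TAC replicate 4 (highest rank correlation 0.823). The column filed under that name matched no scanner file. Klf4 read 3.98 ± 0.25 in Cre sham (SD, n = 4) and 3.94 ± 0.51 in KO sham (SD, n = 4) on the log2 scale described next, which does not separate the genotypes. The labels' description field named the other operation for 7 of 15 arrays, and title and source name were used. All 10 cardiomyocyte markers were well above background on every array.

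The promoters of the called members that rose most over both genotypes and of 3 paralog pairs, Rpl3l and Rpl3, Rpl22l1 and Rpl22, and Rps27l and Rps27, are shown. The start of the transcript is where the pyrimidine run lies. Each sequence runs from 40 bases before to the first 15 bases of the transcript, 5′ to 3′ on the gene's strand, from RefSeq (GRCm38.p6). Capitals mark a run of 8 or more C or T that has a base within 5 bases of the start. Rpl3 and Rps27a had no entry. Rpl3l, Rpl22 and Rps27l had 2 entries and Rps19 had 3, of which the first is shown. The sequences lie at chr3:28805468-28805522 (plus strand) for Rpl22l1, chr4:152325686-152325740 (plus) for Rpl22, chr10:128626492-128626546 (minus) for Rps26, chrX:74270776-74270830 (plus) for Rpl10, chr9:120571477-120571531 (plus) for Rpl14, chr2:32961672-32961726 (plus) for Rpl12, chr7:24884552-24884606 (plus) for Rps19, chr3:90213634-90213688 (minus) for Rps27, chr9:66946046-66946100 (plus) for Rps27l and chr17:24727786-24727840 (plus) for Rpl3l.
Rpl22l1: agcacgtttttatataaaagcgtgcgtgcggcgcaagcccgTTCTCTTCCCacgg
Rpl22: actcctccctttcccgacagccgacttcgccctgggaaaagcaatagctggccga
Rps26: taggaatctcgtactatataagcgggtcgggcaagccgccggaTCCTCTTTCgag
Rpl10: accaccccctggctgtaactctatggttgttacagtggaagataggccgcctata
Rpl14: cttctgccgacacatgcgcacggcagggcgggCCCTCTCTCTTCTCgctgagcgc
Rpl12: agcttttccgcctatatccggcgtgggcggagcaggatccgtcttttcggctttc
Rps19: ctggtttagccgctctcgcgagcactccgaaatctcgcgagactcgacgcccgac
Rps27: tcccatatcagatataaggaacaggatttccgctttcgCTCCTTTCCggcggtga
Rps27l: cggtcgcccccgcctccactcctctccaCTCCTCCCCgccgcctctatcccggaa
Rpl3l: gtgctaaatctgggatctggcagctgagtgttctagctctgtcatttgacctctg

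The run was 10 bases long in Rpl22l1, 9 in Rps26, 14 in Rpl14, 9 in Rps27 and 9 in Rps27l. In Rps27l it lay wholly before the start and so outside the transcript shown. Runs counted by this rule can likewise lie outside the transcript. In the Rpl3l window the longest run of C or T near the start was 4 bases. Promoter entries were found for 63 members (75 entries), and 20 members had none. A run of 8 or more was present in 24 of the 75 entries, or 32%, against 9.72% of the 32851 promoters of 300 bases in the table. CTTCCG, searched on both strands, was in 61.3% of the members' entries and 16.9% of all, and CCGGAAGT, which overlaps it on the opposite strand, in 16% and 3.89%. TATAAA was in 9.33% and 13.6%, and CANNTG, the letters of the E-box bound by basic helix-loop-helix factors, in 48% and 72.3%.

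The 250 bases before the Rpl3l start (chr17:24727576-24727825, plus strand) are shown with CANNTG in capitals, since Rpl3l was the only member that fell. They held 3 such matches, CAGGTG at 2 places and CAGCTG at 1. CAGCTG, a form of CANNTG, was in 4% of the members' entries and 16.3% of all.
Rpl3l: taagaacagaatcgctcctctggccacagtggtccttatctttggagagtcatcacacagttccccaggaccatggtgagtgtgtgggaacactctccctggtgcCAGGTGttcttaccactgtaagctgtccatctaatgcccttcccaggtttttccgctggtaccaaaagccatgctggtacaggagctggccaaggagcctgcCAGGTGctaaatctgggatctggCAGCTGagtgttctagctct

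After TAC, ribosomal protein mRNA was higher by a small amount across most of the family, while Rpl3 rose much further and its muscle paralog Rpl3l fell. Levels are log2 of the processed signal with each array's 75th percentile set to 0, and a gene was called at a limma adjusted p under 0.05 (Benjamini-Hochberg over all features tested). Over both genotypes together, 38 of the 83 genes rose and 1 fell, where 13.3% of all features rose and 13.7% fell. The median difference of the 83 genes was 0.37, against 0.04 over all features, and 80 of them lay above 0. Without KO TAC replicate 4, 68 rose and 1 fell (18% and 20% of all features), with medians of 0.44 and -0.07. The 39 genes called with all arrays were also called without it.

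**Figure D1:**
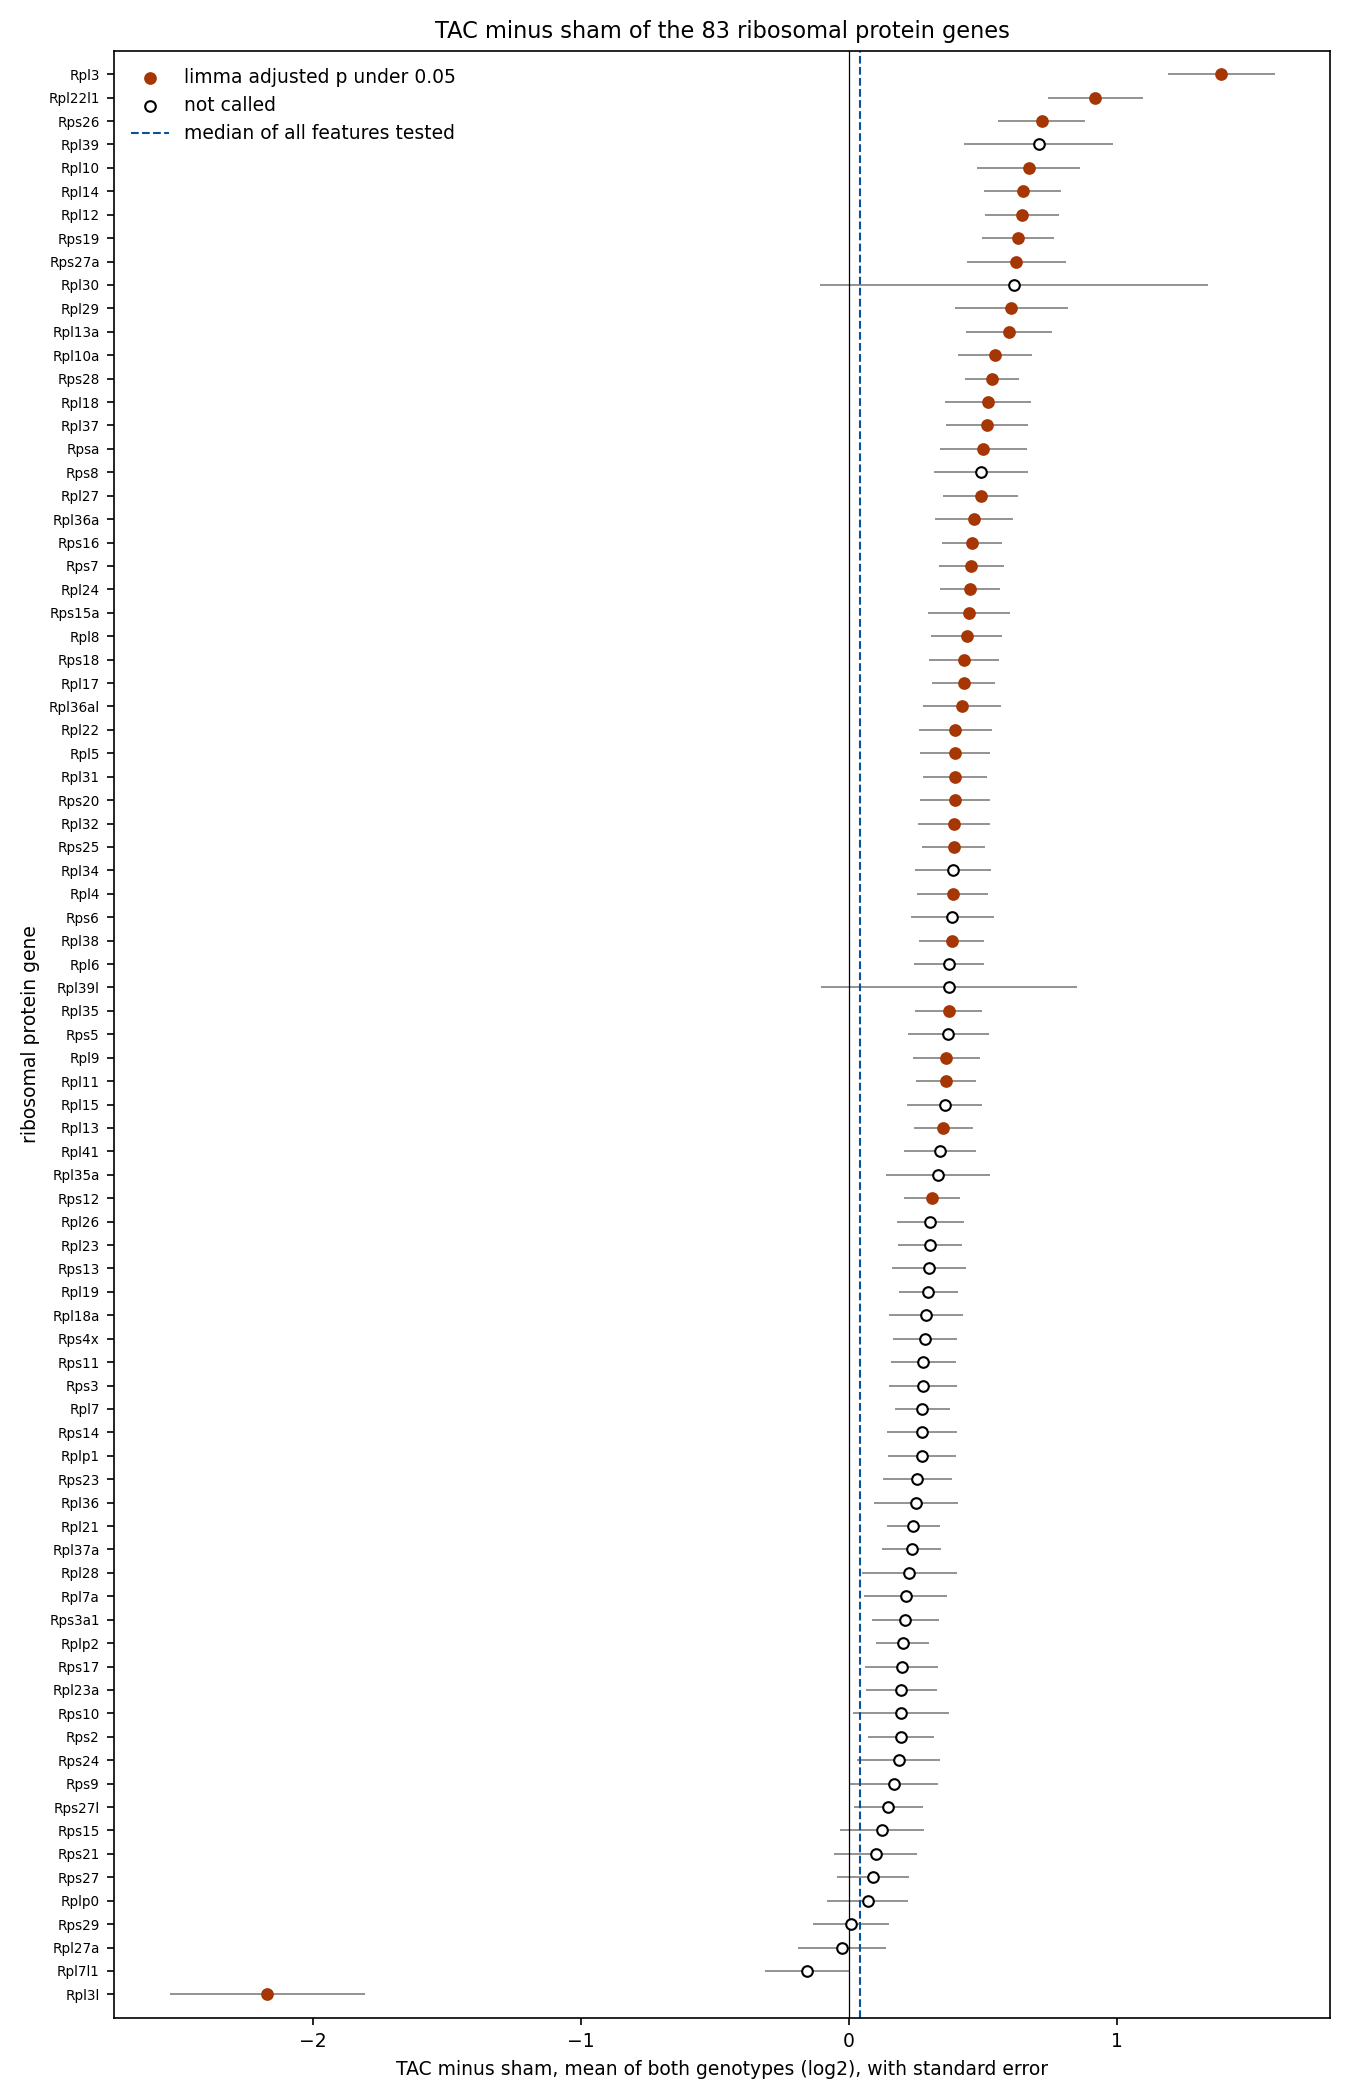
TAC minus sham of each of the 83 ribosomal protein genes on the log2 scale, as the mean of both genotypes with limma's standard error, ordered by size. Filled points passed an adjusted p of 0.05, the dashed line is the median of all features tested, and most genes form a narrow band near the median of 0.37 with Rpl3 at 1.39 above it and Rpl3l at -2.17 below.

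These counts depended on the scaling of the array that stood apart. With each array's median set to 0 instead, 1 gene rose and 1 fell, where 1318 and 1872 of the 25791 features did. The medians were 0.17 over the members and -0.16 over all features. With that scaling and KO TAC replicate 4 left out, 66 rose and 1 fell (4664 and 4794 of all features), at medians of 0.45 and -0.05. Other arrays also moved the count: it was 23 and 16 without Cre sham replicates 2 and 3, 20, 14 and 25 without Cre TAC replicates 1 to 3, 23 and 16 without KO sham replicates 2 and 4, and 22 and 17 without KO TAC replicates 1 and 3, while the member median stayed between 0.33 and 0.44. With each of these arrays left out, 2557 to 3346 of all features rose, against 3433 with all arrays. Of the 39 calls 13 held whichever single array was left out. Rpl3 and Rpl3l were the 2 calls that also held under the other settings tried, the operation of the description field apart.

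By array, the median level of the 83 genes was 6.32, 6.21, 6.07 and 6.15 in Cre sham replicates 1 to 4, and 6.54, 6.64 and 6.52 in Cre TAC replicates 1 to 3. In KO sham it was 6.38, 6.34, 6.40 and 6.13, and in KO TAC 6.87, 6.72, 6.97 and, on replicate 4, 6.29. The Cre groups did not overlap, and the KO groups did not overlap once replicate 4 was set aside. Within slides that held both operations, the median TAC minus sham was 0.40, 0.27 and 0.54 in Cre. In KO it was 0.25, 0.50 and 0.54 on 3 slides and -0.01 on the slide of replicate 4.

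**Figure D2:**
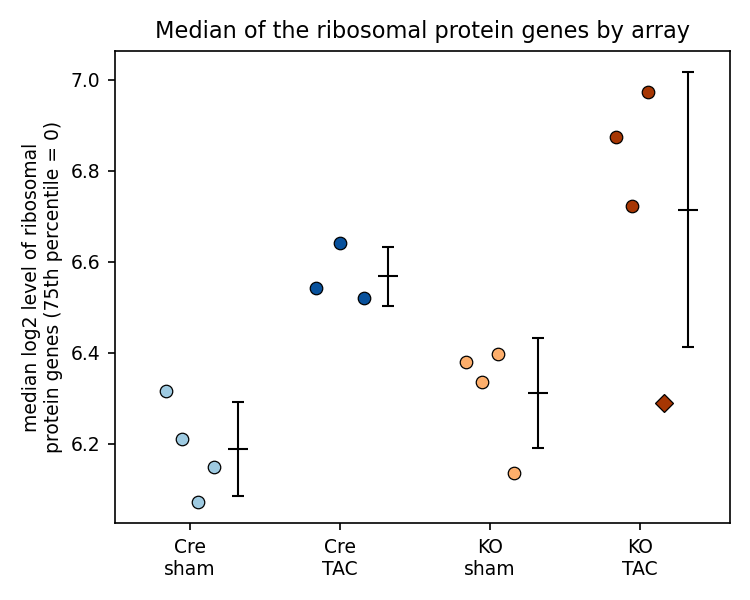
Median log2 level of the 83 ribosomal protein genes on each array, with the array's 75th percentile at 0, by group. Points are arrays, the diamond is KO TAC replicate 4 and bars are mean ± SD: the TAC arrays lie from 6.52 to 6.97 apart from the diamond at 6.29, and the sham arrays from 6.07 to 6.40.

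Of the 83 genes, 64 (77.1%) had all Cre TAC arrays above all Cre sham arrays, against 13.4% of all features. In KO 8 did (9.64%, background 10.4%), and 57 (68.7%, background 17.5%) without replicate 4. Over both genotypes 5 genes had every TAC array above every sham array (background 3.74%): Rpl3, Rpl22l1, Rpl24, Rps19 and Rps28. Without replicate 4 there were 26 (background 4.99%). Rpl3l had all TAC arrays below all sham arrays within Cre (background 13.5%), within KO (13.3%) and within KO without replicate 4 (19.5%). Over both genotypes 0 genes did, with all arrays (background 3.7%) or without replicate 4 (5.01%).

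Over both genotypes, with all arrays and the same background of 13.3% and 13.7%, the large subunit had 26 genes that rose, 1 that fell and a median of 0.37. The small subunit had 12 that rose, 0 that fell and a median of 0.29. Without KO TAC replicate 4 the large subunit had 42 and 1 (median 0.45) and the small subunit 26 and 0 (median 0.36), where 18% and 20% of all features were called. Non-member features of like brightness numbered 323, of which 62 rose and 56 fell, with a median of -0.08 (91, 59 and 0.00 without KO TAC replicate 4). Of 78 mitochondrial ribosomal protein genes, which build the separate ribosome inside mitochondria, 4 rose and 21 fell, with a median of -0.29 (8, 23 and -0.17 without that array). In Cre 0 rose and 0 fell (median -0.08), where 4.3% and 1.64% of all features did. In KO 2 rose and 25 fell (median -0.48), where 10.6% and 12.6% did. Without that array 2 rose and 2 fell in Cre (7.93% and 5.58%), and 7 and 24 in KO (14.8% and 16.7%).

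Rpl3, which reaches from the surface of the large subunit to near the site of peptide bond formation, changed most among the genes that rose. It read 4.53, 4.44, 4.02 and 4.20 in Cre sham and 5.91, 6.11 and 5.45 in Cre TAC. It read 4.76, 5.34, 5.20 and 4.44 in KO sham and 6.53, 6.29, 6.49 and 5.47 in KO TAC. Every TAC array was above every sham array, also on KO TAC replicate 4. The difference was 1.52 ± 0.29 in Cre (SE, adjusted p = 0.0091), 1.26 ± 0.27 in KO (adjusted p = 0.0049) and 1.39 ± 0.20 over both (adjusted p = 0.00026), all from limma. The Cre call was lost without Cre TAC replicate 2 (adjusted p = 0.070).

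Rpl3l, made in heart and skeletal muscle, went the other way. Its levels were 5.06, 5.05, 5.18 and 5.56 in Cre sham and 4.03, 2.09 and 4.32 in Cre TAC. They were 5.32, 3.89, 4.73 and 4.96 in KO sham and 1.86, 3.19, 2.11 and 1.30 in KO TAC. Groups did not overlap within either genotype, but KO sham replicate 2 lay below 2 of the 3 Cre TAC arrays. The limma difference was -2.61 ± 0.49 in KO (SE, adjusted p = 0.0023) and -2.17 ± 0.36 over both (adjusted p = 0.00076). In Cre it was -1.73 ± 0.54 and did not pass (adjusted p = 0.080), though it did without KO TAC replicate 4 (adjusted p = 0.041). In bulk apex RNA, fewer cells of a type and less RNA per cell cannot be told apart.

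Among sham arrays, KO sham replicates 2 and 3 had the highest Rpl3 and the lowest Rpl3l. They also had the highest summed level of the 9 macrophage markers measured, 37.2 and 35.8 (linear, 75th percentile = 1) against 13.9 to 25.8 on the other sham arrays. Their summed level of 8 fibroblast markers, 335.1 and 291.7, was highest too, against 161.0 to 212.8 elsewhere. So was that of smooth muscle markers, 142.4 and 114.2 against 60.4 to 110.7. Summed cardiomyocyte markers were lowest on these 2 arrays, at 1861 and 2031 against 2094 to 2487. Endothelial markers (both 55.3 against 61.4 to 88.3) and red blood cell markers (289.9 and 320.0 against 440.1 to 711.1) were lowest too. The part of these cells in the Rpl3 and Rpl3l levels was not tested.

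Rpl22l1, the paralog of the RNA-binding protein Rpl22, was second to Rpl3 among the rises. It read 4.35, 4.24, 4.16 and 3.53 in Cre sham and 4.88, 5.42 and 5.07 in Cre TAC. It read 4.19, 4.21, 4.48 and 4.18 in KO sham and 5.49, 4.83, 5.38 and 4.53 in KO TAC. The lowest TAC array lay just above the highest sham array, both of them KO. The limma difference was 1.05 ± 0.26 in Cre (adjusted p = 0.032), 0.79 ± 0.24 in KO (adjusted p = 0.032) and 0.92 ± 0.18 over both (adjusted p = 0.0020). Rpl22 itself was 0.40 ± 0.14 higher over both (adjusted p = 0.045), but its dimmer second probe read -0.55.

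**Figure D3:**
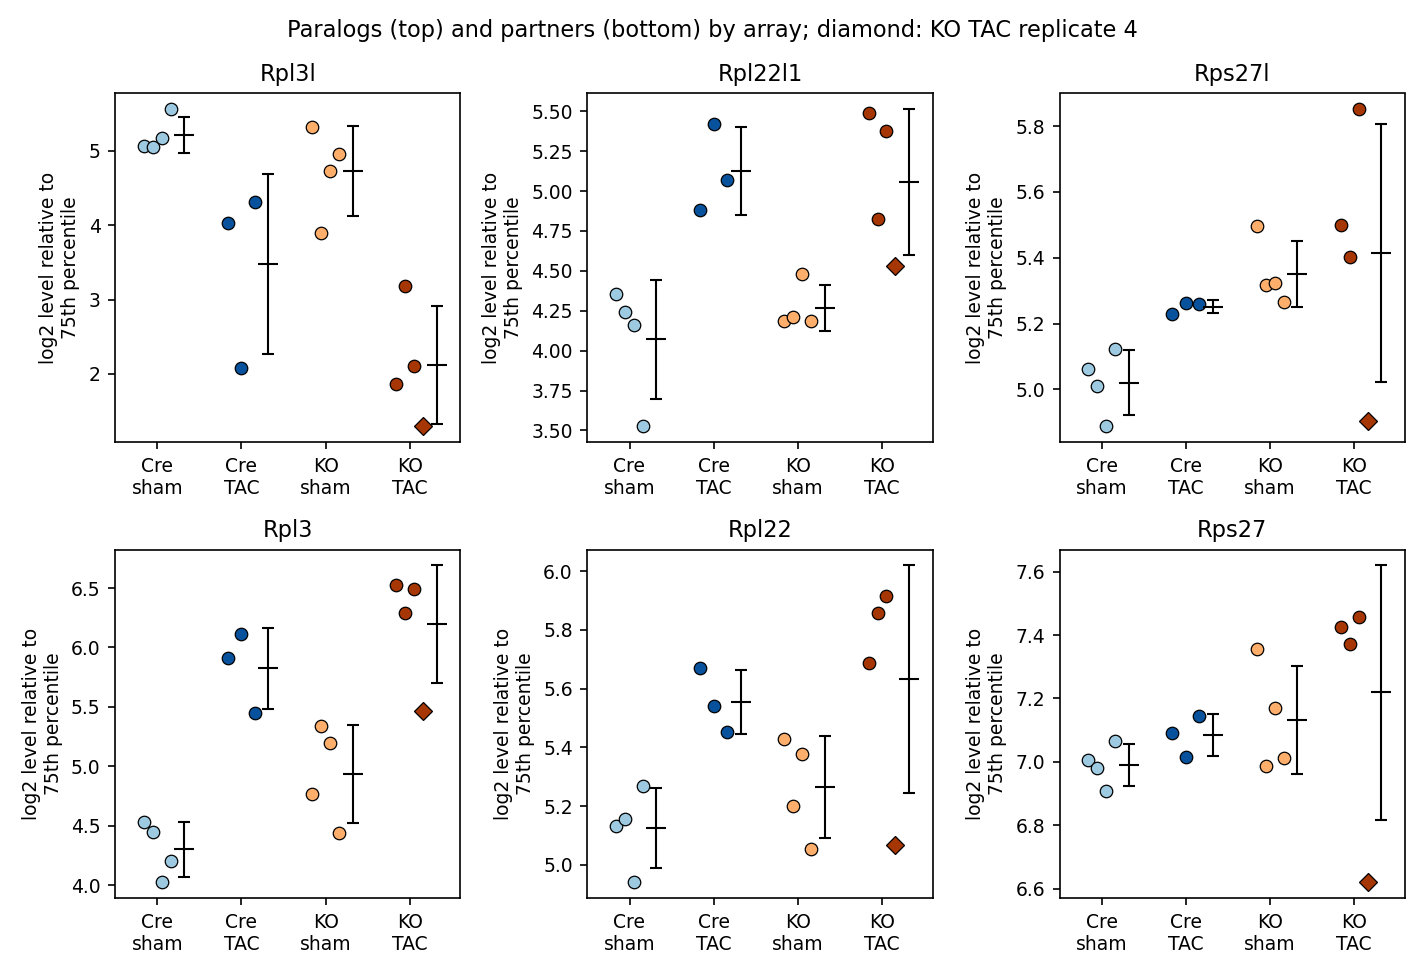
Log2 level by array of Rpl3l, Rpl22l1 and Rps27l above their partners Rpl3, Rpl22 and Rps27, relative to each array's 75th percentile, with its own axis in each panel. Points are arrays, the diamond is KO TAC replicate 4 and bars are mean ± SD: Rpl3l falls from 3.89 or more in sham to as low as 1.30 after TAC while Rpl3 and Rpl22l1 are above every sham array on every TAC array.

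The ratio of paralog to partner on 1 array does not depend on how arrays are scaled, so its change was tested for the 6 measured pairs. Probes differ in brightness, so only the change is read, with the mean of the 8 sham arrays set to 0. The log2 ratio of Rpl3l to Rpl3 was 0.56 ± 0.41 in Cre sham (SD, n = 4), -4.38 to -1.48 in Cre TAC (n = 3), -0.56 ± 0.95 in KO sham (SD, n = 4) and -4.43 ± 0.69 in KO TAC (SD, n = 4). After TAC it was lower by 3.26 in Cre, 3.87 in KO and 3.56 over both, a factor of 11.8. The exact two-sided permutation of the operation within genotype gave p = 0.000408, the smallest that its 2450 allocations allow, and 0.00245 after adjustment over 6 pairs. In each genotype alone the exact p was 0.0286, the smallest possible.

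**Figure D4:**
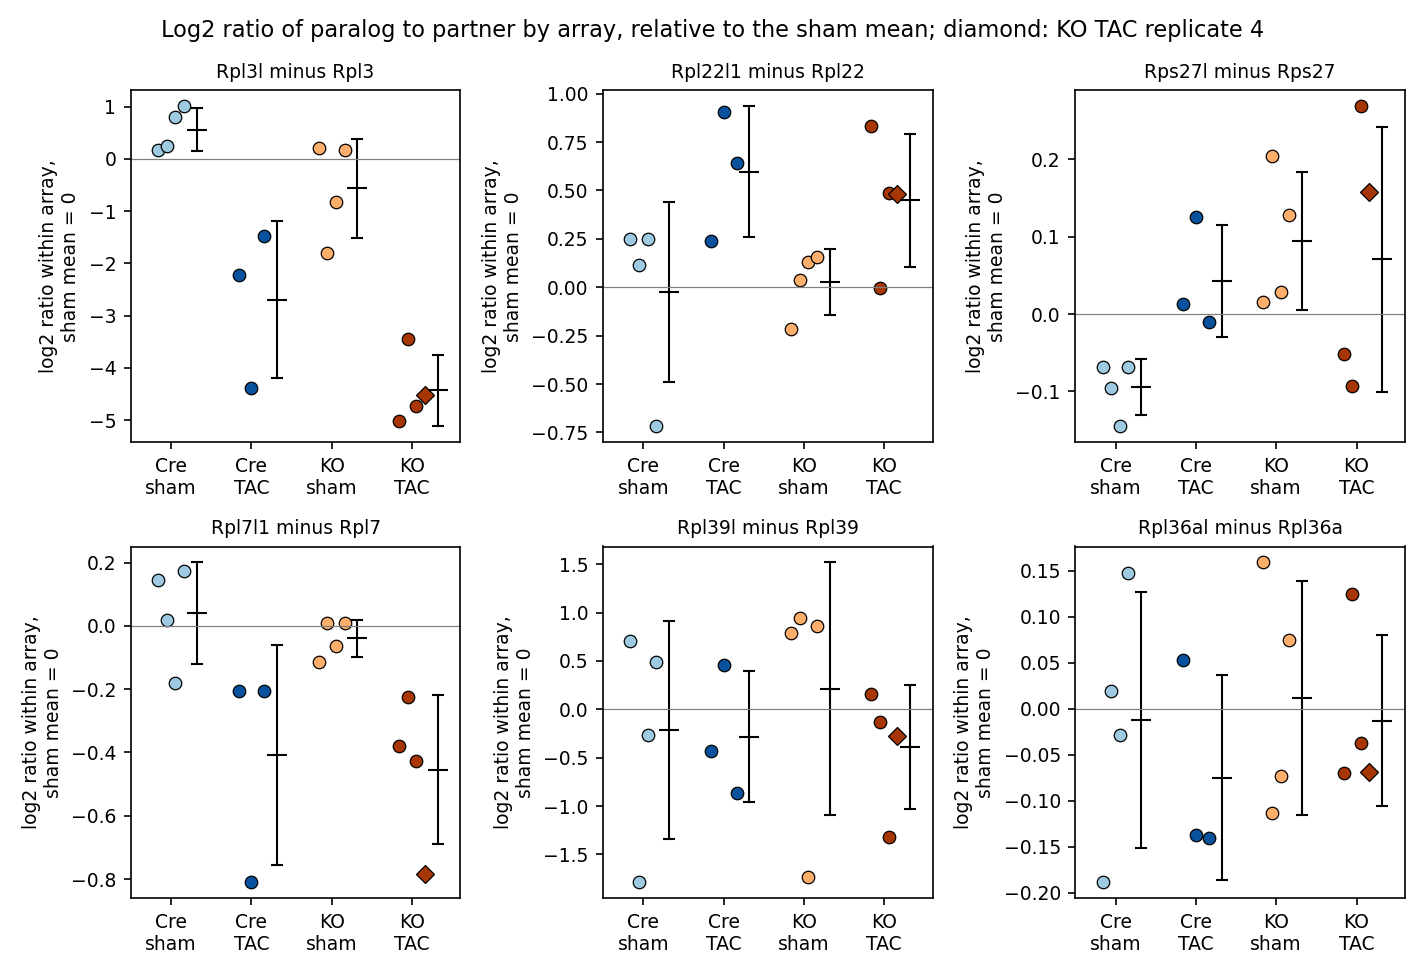
Log2 ratio of each paralog to its partner on each array, with the mean of the 8 sham arrays set to 0 and its own axis in each panel. Points are arrays, the diamond is KO TAC replicate 4 and bars are mean ± SD: the Rpl3l to Rpl3 ratio spans -5.02 to -1.48 on TAC arrays and -1.79 to 1.00 on sham arrays.

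The Rpl22l1 to Rpl22 ratio was 0.52 higher after TAC over both genotypes (exact permutation p = 0.0118, adjusted 0.0237), with 1 KO TAC array at the sham mean. In each genotype alone the exact p was 0.171 (Cre) and 0.114 (KO). The Cre groups overlapped too: Cre TAC replicate 1, at 0.238, lay below Cre sham replicates 1 and 3, at 0.249 and 0.248. The Rpl7l1 to Rpl7 ratio was 0.43 lower (exact p = 0.000816, adjusted 0.00245). Rpl7l1, a relative of the large-subunit protein Rpl7, itself differed by -0.16 ± 0.16 and its dimmer probe by 0.37, so the direction of that ratio rests on the probe chosen. The ratio of Rps27l, a target of p53, to Rps27 differed by 0.06 (exact p = 0.323, adjusted 0.485). The ratios of Rpl36al to Rpl36a (-0.04, exact p = 0.467) and Rpl39l to Rpl39 (-0.34, exact p = 0.509) were also not called. Rpl39 itself differed by 0.71 over both genotypes and was not called by limma.

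Among the small-subunit proteins, Rps26, which lines the path of the mRNA, read at most 5.35 in Cre sham, 5.56 to 6.14 in Cre TAC, 5.06 to 5.48 in KO sham and 5.42 to 6.39 in KO TAC. Its difference over both genotypes was 0.72 ± 0.16 (limma adjusted p = 0.0051), and only the KO groups overlapped, at replicate 4. Rps19, needed to mature the small subunit and often mutated in Diamond-Blackfan anaemia, was 0.63 ± 0.13 higher (adjusted p = 0.0036). Rps27a, made as a fusion with ubiquitin, was 0.63 ± 0.19 higher (adjusted p = 0.024). Rps28, near the exit of the mRNA, was 0.54 ± 0.10 higher (adjusted p = 0.0016) and Rps16, which touches the transfer RNA, 0.46 ± 0.11 higher (adjusted p = 0.0080).

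Rps6, the classic substrate of S6 kinase, was at 0.39 ± 0.15 (adjusted p = 0.084) and passed only without KO TAC replicate 4 (adjusted p = 0.0032). Rpsa, also known as the laminin receptor, rose by 0.50 ± 0.16 (adjusted p = 0.036). Rps27 was at 0.09 ± 0.13 (adjusted p = 0.69). Rps29, a small zinc-binding protein, had the smallest difference of all, 0.01 ± 0.14 (adjusted p = 0.98). Both were far lower on KO TAC replicate 4 than on the other KO TAC arrays. Rps27 read 6.62 there against 7.37 to 7.46, and Rps29 6.95 against 7.77 to 7.81. Without that array the lowest difference of any small-subunit gene over both genotypes was 0.11.

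Among large-subunit proteins, Rpl10, which joins late and is needed for the subunits to pair, rose by 0.67 ± 0.19 (limma adjusted p = 0.020). Rpl14 read -0.14, -0.08, -0.19 and -0.06 in Cre sham and 0.71, 0.81 and 0.49 in Cre TAC, a difference of 0.79 ± 0.21 (adjusted p = 0.047). Those groups were far apart, while in KO the TAC array of replicate 4, at 0.00, fell among the sham arrays. Rpl31, beside the tunnel through which the new protein leaves, differed by 0.75 ± 0.18 in Cre (adjusted p = 0.026) and by 0.05 ± 0.16 in KO (adjusted p = 0.86). The test of that difference did not pass (adjusted p = 0.45). The probes of Rpl14 and Rpl31 were dim for the family, with mean levels of 0.27 and 0.23. The median level of the members was 6.07 to 6.97 by array.

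Rpl12, at the base of the stalk that recruits translation factors, rose by 0.65 ± 0.14 over both genotypes (adjusted p = 0.0035). The stalk proteins themselves were not called: Rplp0 was at 0.07 ± 0.15 (its dimmer second probe at 0.38), Rplp1 at 0.27 ± 0.13 and Rplp2 at 0.20 ± 0.10 (adjusted p = 0.79, 0.14 and 0.17). Without KO TAC replicate 4 Rplp2 passed (adjusted p = 0.021). In KO, called genes further included Rpl13a (0.64 ± 0.22, adjusted p = 0.0499), known for a second role in silencing inflammatory mRNAs, Rpl10a (0.59 ± 0.19, adjusted p = 0.038), part of the mobile L1 stalk, and Rpl24 (0.48 ± 0.15, adjusted p = 0.034), which bridges the subunits.

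By genotype, 4 members rose and 0 fell after TAC in Cre (all features 4.3% and 1.64%), at a median of 0.39 and with 81 of 83 above 0. They were Rpl3, Rpl22l1, Rpl14 and Rpl31. In KO 10 rose and 1 fell (10.6% and 12.6% of all features), at a median of 0.34. With slide as a block 21 rose and 1 fell in KO (13% and 15.8%). With KO TAC replicate 4 left out, 22 rose and 1 fell in Cre (7.93% and 5.58%) and 54 and 1 in KO (14.8% and 16.7%). The fit pools the spread over all groups, so the Cre counts moved too. Leaving out paralogs and dim probes, such as those of Rpl14 and Rpl31, kept 74 members. Of these 1 rose in Cre (Rpl3) and 9 in KO with all arrays, and 18 and 51 without KO TAC replicate 4. In KO the calls of Rpl3, Rpl3l, Rps19 and Rps28 held whichever single array was left out. The other 7 KO calls were lost for at least 1 array: Rpl13a for 14 of 15 and Rpl10a for 8. Rpl24 and Rps16 were lost for 7 each, Rpl12 and Rpl22l1 for 5 each and Rps26 for 4. In Cre all 4 calls were lost for at least 1 array: Rpl14 for 12 of 15, Rpl22l1 for 6, Rpl31 for 5 and Rpl3 for 1.

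Between genotypes no member was called by limma. After sham 0 rose and 0 fell (0.00388% and 0.0116% of all features), and 1 had an unadjusted p under 0.05. After TAC there were 0 and 0 (1.14% and 1.9%), with 3 under 0.05 unadjusted, and for the difference of the TAC responses 0 and 0 (0.00388% and 0.00775%), with 2. Member medians were 0.13, 0.08 and -0.06. With KO TAC replicate 4 set aside these medians became 0.13, 0.24 and 0.11. Without KO TAC replicate 4, Rpl13a, Rpl36al and Rpl4 were called higher in arrays filed as KO after TAC and 0 lower (4.11% and 4.72% of all features). For sham and for the difference of responses the counts stayed at 0 (0.00775% and 0.0155%, and 0.0233% and 0.0969%).

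Other genes of ribosome production and translation were taken from lists. Their counts stand over both genotypes unless a genotype is named. There 13.3% of all features rose and 13.7% fell (18% and 20% without KO TAC replicate 4). Ribosome assembly factors, which process ribosomal RNA and build the subunits, had 13 of 42 measured genes that rose and 0 that fell, at a median of 0.33, and 26 and 0 without KO TAC replicate 4. In Cre 1 rose (median 0.14, 4.3% of all features) and in KO 15 (median 0.50, 10.6%). Without that array 3 rose in Cre (7.93%) and 34 in KO (14.8%). Then 23 were called higher in arrays filed as KO after TAC (4.11%), and 0 for the difference of responses. Rrp12, which helps export the small subunit, rose by 1.09 ± 0.16, Nhp2, of the particles that modify ribosomal RNA, by 1.09 ± 0.18, Imp4 by 0.90 ± 0.12 and Nop58 by 0.82 ± 0.20. Of 11 RNA polymerase I genes 1 rose, Taf1d (0.90 ± 0.19), and 1 fell, Taf1a (-1.37 ± 0.18), both subunits of the factor that selects the ribosomal RNA promoter.

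Translation initiation factors had 7 of 32 genes that rose and 2 that fell, at a median of 0.09, and 13 and 2, at a median of 0.19, without KO TAC replicate 4. Eif1a and Eif1ax, which help find the start codon, rose by 1.05 ± 0.22 and 0.65 ± 0.16. Eif6, which keeps large subunits from joining early, rose by 0.98 ± 0.18 and the helicase Eif4a1 by 0.97 ± 0.15. Elongation factors and related genes had 3 of 10 that rose and 1 that fell (6 and 1 without that array): Eef2k, a kinase that slows elongation, by 1.09 ± 0.18, the poly(A)-binding protein Pabpc1 by 0.70 ± 0.17 and the release factor Etf1 by 0.53 ± 0.16, with Eef1a2, the muscle and neuron form of the factor that brings transfer RNA, at -0.48 ± 0.15.

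Among 14 regulators of ribosome production 3 rose and 5 fell, also without that array. Myc, a transcription factor that drives ribosome production, read -1.35, -1.66, -1.97 and -1.18 in Cre sham and 0.60, 0.28 and -0.23 in Cre TAC. It read -0.89, 0.49, 0.00 and -1.23 in KO sham and 2.09, 2.57, 2.13 and 1.18 in KO TAC. Groups were apart within each genotype, and KO sham replicates 2 and 3 again were the highest sham arrays. Its difference over both was 2.08 ± 0.28 (limma adjusted p = 0.00019), that of Mycn -1.26 ± 0.30 (adjusted p = 0.0067), that of Eif4ebp1, a brake on cap binding, 0.84 ± 0.17 (adjusted p = 0.0022) and that of Tsc2, a brake on mTOR, -0.62 ± 0.17 (adjusted p = 0.016). Of ribosome proteins outside the naming rule, the scaffold Rack1 rose by 0.40 ± 0.12 (adjusted p = 0.024), while Fau was at 0.23 ± 0.15 and was not called (adjusted p = 0.33).

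**Figure D5:**
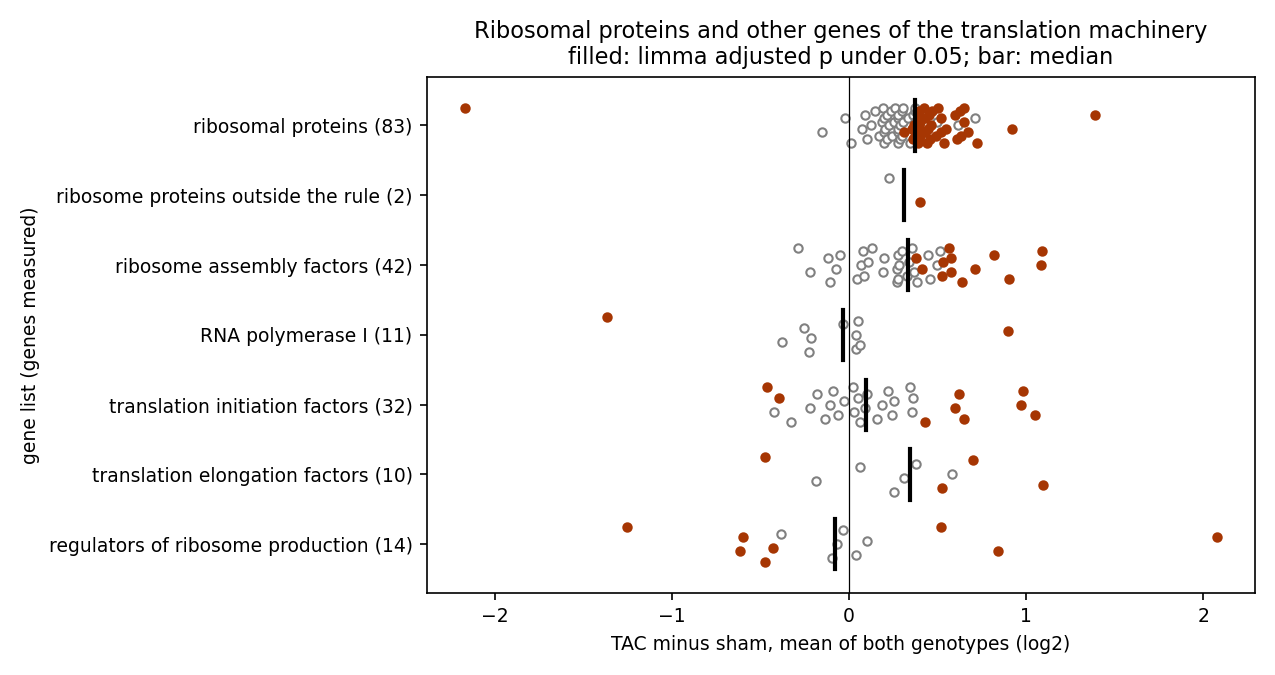
TAC minus sham of single genes, mean of both genotypes on the log2 scale, for the ribosomal proteins and 6 lists of the translation machinery, with the number measured in brackets. Filled points passed a limma adjusted p of 0.05 and bars are medians: those of ribosomal proteins, assembly factors and elongation factors lie at 0.37, 0.33 and 0.34 and that of initiation factors at 0.09.

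Cell type markers also differed after TAC, and their part was not tested. Over both genotypes 13.3% of all features rose and 13.7% fell. Of the markers, 6 of 6 dividing-cell, 5 of 6 neutrophil, 4 of 9 macrophage, 4 of 8 fibroblast and 3 of 7 smooth muscle markers rose. Those that fell were 4 of 8 endothelial, 3 of 5 red blood cell, 2 of 8 lymphocyte, 1 of 10 cardiomyocyte and 1 of 7 smooth muscle markers. Without KO TAC replicate 4, 6 neutrophil and 5 macrophage markers rose, and 4 lymphocyte, 2 cardiomyocyte and 2 smooth muscle markers fell. The other counts stayed the same, where 18% of all features rose and 20% fell. By genotype and with all arrays, 3 of 9 macrophage markers rose in Cre (median 1.09) and 1 in KO (median 0.11). Without that array these were 5 and 2. Of 8 fibroblast markers 3 rose in Cre (median 0.63), while in KO 2 rose and 1 fell (median -0.10). Of all features 4.3% rose in Cre, and in KO 10.6% rose and 12.6% fell. All 6 dividing-cell markers rose in each genotype. Summed macrophage levels were 13.9 to 25.8 in Cre sham, 29.0 to 46.5 in Cre TAC, 17.7 to 37.2 in KO sham and 24.8 to 36.7 in KO TAC. Summed dividing-cell levels were 0.848 to 2.36, 6.63 to 14.9, 1.09 to 1.97 and 5.05 to 10.8 in that order, without overlap between operations. Summed cardiomyocyte levels were 2094 to 2111, 1885 to 2356, 1861 to 2487 and 1186 to 2217, and overlapped. The 1186 was on KO TAC replicate 4, and the other KO TAC arrays were at 1662 to 2217.

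As a description, members with and without a pyrimidine run near the start, inside the transcript or not, had like differences. A member with several entries was taken at the longest run among them. The 24 members with a run had a median TAC minus sham of 0.37 and the 39 without one also of 0.37.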

How the data were processed

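Cy3-labelled total RNA was read on Agilent arrays of 1 colour, per the labels' protocols. The 15 files hold spot intensity from Feature Extraction 10.7.3.1, deposited by the authors, and per the file headers its processed signal has the background subtracted and arrays are not scaled to each other. The authors also deposited log2 values, used as an alternative; the submitters' processing notes name limma. There the direction of genotype is unsettled.

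Control spots were left out, outlier spots set missing (Rpl37 on KO sham replicate 1) and spots of a probe averaged, giving 41174 probes. Accessions were named through RefSeq (GRCm38.p6) for 24836 probes. The log2 processed signal was centred on the 75th percentile of its array, a probe needed to be well above background on 3 arrays (32511 were), and a gene took its brightest probe. Of the members 30 had several probes. limma 3.58.1 (R 4.3.3) fitted the 4 groups. Paralog ratios were tested by exact permutation. Both were tested on simulated data. The number of arrays limits the precision. Separate animals are stated per group, not per array.

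Genes were named by this rule: paralog pairs, Rplp0 to Rplp2, Rpsa, Rps6, up to 10 called members per comparison and direction (else the 8 largest), the largest and smallest difference, and up to 4 called genes of each list; genes of marker lists are given as counts. The values of 1 gene of a list are not reported here. Members and lists were chosen with earlier results of these data known. Alternatives covered normalization, filters, blocks by slide or replicate number, array weights, probe averaging, left-out arrays and the operation of the description field. Same-numbered arrays did not deviate together (median correlation -0.06 over 21 pairs), while arrays of a slide did (0.28 over 21 pairs, against -0.11 over 63 pairs of other slides). Figures used Python 3.11.15 and matplotlib 3.10.9.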

Additional observations from a re-analysis of the deposited data

Results flagged for a closer look

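Of 111 sets of arrays examined (named genes and paralog ratios within groups of 4), 11 had 1 array far from the other 3, or 9.91%, where chance gives about 1 in 20. On KO TAC replicate 4, the array that stood apart, Rpl7l1 read 0.54 (others 1.37 to 1.48), Rps27 6.62 (7.37 to 7.46) and Rps29 6.95 (7.77 to 7.81), each the lowest of its group. On Cre sham replicate 4, Rpl10 read 4.97 (5.93 to 5.98), Rplp1 7.06 (7.54 to 7.60) and the log2 ratio of Rpl22l1 to Rpl22 was -1.74 (-0.91 to -0.78), again the lowest. In KO sham, Rpl22l1 was highest on replicate 3 at 4.48 (4.18 to 4.21), Rps29 highest on replicate 1 at 7.97 (7.59 to 7.65) and Rps28 lowest on replicate 4 at 7.07 (7.29 to 7.32). The log2 ratio of Rpl39l to Rpl39 was lowest on KO sham replicate 3, at -11.27 (-8.74 to -8.59), and that of Rpl36al to Rpl36a highest on KO TAC replicate 2, at -1.42 (-1.61 to -1.58).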

How the results depend on the processing

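Settings that left out KO TAC replicate 4 together with another change, and the authors' values regrouped, were chosen after seeing the data. Members that rose over both genotypes numbered 38, and 1 with median scaling, 23 with no filter on dim probes, 73 with array weights, 66 with median scaling and 73 with a slide block when KO TAC replicate 4 was left out, and 0 (and 0 that fell, in KO too) with the operation of the description field. Over all features the rises numbered 3433, and 1318 with median scaling, 3003 of 33512 with no filter and 5131 with array weights. Without that array they were 4664 with median scaling and 5746 with a slide block, and with the description field 0. In Cre the 4 rises became 0 with median scaling, 2 with no filter, 7 with a slide block, 29 with array weights, 0 with the description field, and 8 (median scaling) or 49 (slide block) without that array. Over all features the Cre rises went from 1109 to 351 with median scaling, 839 of 33512 with no filter and 1319 with a slide block. They were 2399 with array weights, 0 with the description field, and 1787 (median scaling) or 2932 (slide block) without that array. The count that fell in Cre became 1 with normexp, the authors' values (regrouped or not), slide as a block or a random block, array weights, and each combined setting. Over all features 694 to 4645 fell in these settings, against 423 in the main fit. In KO the 10 rises became 36 with quantile normalization, 0 with median scaling, 41 with normexp, 5 with no filter, 16 when probes had to be above background on all arrays, 21 with slide as a block or random block, 71 with array weights, 1 with only the compared groups, 0 with the description field, and 53, 39 and 60 with median, quantile and slide settings without that array. Over all features the KO rises went from 2730 to 2426 with quantile normalization, 769 with median scaling, 2598 with normexp and 4771 with array weights. They were 2354 of 33512 with no filter and 2498 of 19558 when probes had to be above background on all arrays. They were 3343 and 3367 with the slide blocks, 1509 with only the compared groups and 0 with the description field. Without that array they were 4130, 3841 and 4897 in that order. The authors' value table has the genotypes exchanged: its own Cre columns, arrays filed as KO, gave 40 rises and its KO columns 16, with 2 rises and 5 falls between its genotypes after TAC (median -0.17). Its KO columns include the column that matched no scanner file. Of all features 3992 rose in its Cre columns and 2618 in its KO columns. Between its genotypes after TAC 1441 rose and 1686 fell. With its 14 matched arrays, which leave out KO TAC replicate 4, grouped as filed, 7 rose in Cre (median 0.19), 38 in KO and 3 between genotypes after TAC (median 0.19), and the difference of responses had a median of 0.16. Of all features 1973 rose there in Cre, 3839 in KO and 1215 between genotypes after TAC. A block by replicate number left 1 rise in Cre, 9 in KO and 18 over both (718, 2435 and 3034 of all features). Samples shared only a number. Member medians became -0.032 (KO) and 0.17 (both) with median scaling, and 0.00072 (Cre), 0.15 (KO) and 0.073 (both) with the description field. Between genotypes after TAC, 16 rose and 1 fell with array weights (0.29), 5 and 1 with the slide block and 6 with median scaling without that array (0.39), and the median was -0.21 with median scaling. Of all features 1866 rose and 2129 fell with array weights. Without that array 1989 rose and 2251 fell with the slide block, and 1840 rose with median scaling. The difference of responses had medians of 0.14 (quantile), -0.40 (median scaling), 0.13 (normexp), 0.17 (array weights), 0.15 (description field), and 0.20 and 0.13 with median and quantile scaling without that array. With the description field the Rpl3l to Rpl3 change was -0.15 and the Rpl22l1 to Rpl22 change 0.22, neither called. Leaving out 1 array gave 0 to 22 rises and 0 to 1 falls in Cre, 3 to 54 in KO and 14 to 68 over both, 0 to 3 rises and 0 to 1 falls between genotypes after TAC. Rises over all features then ranged from 357 to 2045 in Cre, 2027 to 3810 in KO and 2557 to 4654 over both. Between genotypes after TAC they ranged from 24 to 1060. Causes were not tested. Of 315 values with 1 array left out 286 stayed within their limits, and of 315 others 244 did. For a median the limit was a move of less than 0.18, the pooled SD of the arrays' member median within groups, whatever its sign. Counts between genotypes were 0 in the main fit, and a count that stayed at 0 was within its limit. The sign of the member median turned in KO under 1 of 32 settings, between genotypes after sham under 1 and after TAC under 3 of 32, and for the difference of responses, near 0 with all arrays, under 10 of 31; for TAC in Cre and over both it turned under none of the 32 and 31 settings run.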
